A study of Mus musculus with 16 samples.

Results

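The 9 genes described here encode the enzymes that cut neuregulin 1 and related membrane proteins. *Psen2*, *Ncstn*, *Aph1a*, *Aph1b* and *Psenen* encode subunits of gamma-secretase, and *Bace1*, *Bace2*, *Adam10* and *Adam17* encode sheddases. They were taken by symbol from the gene expression rows of all 8 matrices, by a rule that uses no measured value, and are 9 of the 32285 genes counted. The list itself was chosen with earlier results of these data known. The nuclei came from the microdissected dentate gyrus (DG) of 4 wild-type mice (WT, genotype VV) and 4 mice with both copies of *Nrg1* carrying the V321L substitution (genotype LL), with 2 females (F1, F2) and 2 males (M1, M2) per genotype and 1 library per mouse. V321L exchanges a valine for a leucine in the transmembrane domain of Nrg1, where gamma-secretase cuts. It is carried in the germ line and so by every cell class below. No group received an agent, and the labels give neither an age nor a processing date. RNA counts per gene do not read this substitution, so they do not check the genotype.

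Nrg1 is made as a membrane-anchored precursor. A sheddase first removes the extracellular part, and Bace1 and the ADAM proteases Adam10 and Adam17 are the enzymes best known for this step. Gamma-secretase then cuts the stub within the membrane and frees an intracellular domain that can enter the nucleus, a route called nuclear back-signaling. Gamma-secretase is assembled from a presenilin, which holds the catalytic site, nicastrin (*Ncstn*), which helps to admit substrates, an Aph1 protein, which acts as a scaffold, and Pen-2 (*Psenen*), which is needed for the presenilin to be processed into its active form. The DG consists largely of granule cells (GCs), and GCs that express the opioid peptide gene *Penk* include semilunar GCs.

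On build GRCm38 (mm10) *Psenen* is the shortest member, at chr7:30561865-30563627 (1.763 kb), and *Adam10* the longest, at chr9:70678944-70780229 (101.286 kb). *Aph1a* (4.672 kb) lies on chromosome 3, *Ncstn* (16.777 kb) and *Psen2* (36.464 kb) on chromosome 1, *Aph1b* (22.144 kb) and *Bace1* (23.94 kb) on chromosome 9, *Adam17* (50.124 kb) on chromosome 12 and *Bace2* (86.209 kb) on chromosome 16. *Psenen* overlaps *U2af1l4* (chr7:30563340-30565364), and *Aph1b* has a near-identical neighbour, *Aph1c* (chr9:66814991-66834706). Counts of *Psenen* and *Aph1b* are therefore uncertain to the extent that reads were split with these genes. The promoters of *Psenen* and *Aph1a*, the subunits with the largest rises, and of *Adam10* and *Adam17*, the sheddases called lower, are given here because the accessibility of the same sites was measured below. Each is 300 bases from RefSeq (GRCm38.p6), read 5′ to 3′ along the strand of the gene, from 250 bases before to 50 after a start site, and capitals mark matches on either strand to the CCAAT box (these letters), the TATA box (letters TATAAA), the YY1 motif (letters AAGATGGCG) or the GC box (letters GGGCGG).
Psenen, outer start, chr7:30563578-30563877, minus strand: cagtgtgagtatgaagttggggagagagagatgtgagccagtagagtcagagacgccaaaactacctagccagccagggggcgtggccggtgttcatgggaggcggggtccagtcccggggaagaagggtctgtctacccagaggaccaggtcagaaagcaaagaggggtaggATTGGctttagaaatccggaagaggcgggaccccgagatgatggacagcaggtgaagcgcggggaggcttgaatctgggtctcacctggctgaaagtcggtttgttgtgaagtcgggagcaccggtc
Psenen, inner start, chr7:30563155-30563454, minus strand: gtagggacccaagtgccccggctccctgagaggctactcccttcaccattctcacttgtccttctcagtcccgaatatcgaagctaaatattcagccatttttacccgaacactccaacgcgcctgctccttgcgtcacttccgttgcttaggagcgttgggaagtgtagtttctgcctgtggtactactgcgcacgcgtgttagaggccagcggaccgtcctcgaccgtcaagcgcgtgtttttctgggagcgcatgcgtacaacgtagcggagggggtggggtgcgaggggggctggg
Aph1a, chr3:95893671-95893970, plus strand: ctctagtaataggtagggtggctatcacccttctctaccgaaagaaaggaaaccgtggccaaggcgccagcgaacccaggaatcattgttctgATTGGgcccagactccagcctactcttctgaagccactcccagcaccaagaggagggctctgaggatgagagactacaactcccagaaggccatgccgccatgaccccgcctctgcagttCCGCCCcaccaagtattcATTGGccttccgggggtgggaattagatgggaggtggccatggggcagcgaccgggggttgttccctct
Adam10, chr9:70678732-70679031, plus strand: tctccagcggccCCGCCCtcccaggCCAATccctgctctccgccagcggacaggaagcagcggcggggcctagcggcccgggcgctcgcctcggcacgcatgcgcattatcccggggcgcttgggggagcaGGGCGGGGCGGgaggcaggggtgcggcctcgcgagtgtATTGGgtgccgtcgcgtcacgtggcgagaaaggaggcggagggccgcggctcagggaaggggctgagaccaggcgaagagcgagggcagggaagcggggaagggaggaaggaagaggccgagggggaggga
Adam17, chr12:21373583-21373882, minus strand: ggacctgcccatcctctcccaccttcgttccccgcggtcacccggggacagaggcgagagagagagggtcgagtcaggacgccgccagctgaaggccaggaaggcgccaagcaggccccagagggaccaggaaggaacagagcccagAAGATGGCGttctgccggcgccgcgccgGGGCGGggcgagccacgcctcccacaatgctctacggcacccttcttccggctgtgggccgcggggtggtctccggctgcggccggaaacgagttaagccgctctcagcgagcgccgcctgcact
The *Adam10* and *Adam17* promoters held 32 and 30 CpG pairs, and the inner and outer *Psenen* promoters 23 and 13, against a median of 7 over 32817 mouse promoters of this length. A GC box was present in the *Adam10*, *Adam17* and *Aph1a* windows and in 35.6% of all promoters. The YY1 letters were present in the *Adam17* window and in 1.40% of all promoters, the CCAAT letters in 37.4% and the TATA letters in 13.6%. Neither *Psenen* window held a GC box or a TATA box in these letters.

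Nuclei were assigned to a cell class by a panel of marker genes that held no member. GC-like nuclei numbered 1150 to 2321 per WT mouse and 800 to 1176 per V321L mouse. All markers of their own panel were detected in every mouse, with a summed level of 10533 to 11513 counts per 1000000 UMIs (CPM) in WT and 7062 to 7928 in V321L GC-like nuclei, while the GABAergic panel reached 1302 to 2228 CPM in them. The libraries of the genotypes differed as a whole. GC-like nuclei had a median of 1115 to 2057 unique molecular identifiers (UMIs) in WT and 3297 to 4719 in V321L mice, and the share of these UMIs that came from ribosomal protein genes was 0.0465% to 0.113% in WT and 0.818% to 1.75% in V321L mice. WT GC-like nuclei lay mostly in clusters 1, 2 and 3 and V321L ones in clusters 0 and 6 of a joint clustering. Any 2 libraries shared at most 0.755% of the barcodes of the smaller one.

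In GC-like nuclei of V321L mice the RNA of 4 gamma-secretase subunits, *Psenen*, *Aph1a*, *Ncstn* and *Psen2*, was higher than in WT, that of the sheddases *Adam10* and *Adam17* was lower, and *Bace1* and *Aph1b* did not pass the test. The difference in *Adam17* rested on the scaling. These 6 calls among the 8 members tested stand beside 70.4% of all 12190 genes, so a call as such was no feature of the members. 4 of 8 were called higher against 38.7% of all genes, and 2 of 8 lower against 31.7%. With every nucleus thinned to 1000 UMIs, *Psenen* (4.15), *Psen2* (0.85) and *Adam10* (-0.93) were called on the log2 scale, and *Aph1a* (0.82, edgeR adjusted p = 0.0561), *Ncstn* (0.58, edgeR adjusted p = 0.0545) and *Adam17* (-0.32, edgeR adjusted p = 0.229) were not.

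*Psenen* differed most. Its level in GC-like nuclei was 0.932 (F1), 1.69 (F2), 9.32 (M1) and 2.38 (M2) CPM in the WT mice, from 3, 8, 14 and 8 UMIs. In the V321L mice it was 72.5, 63.5, 63.3 and 66.8 CPM in the same order, from 271, 361, 235 and 203 UMIs. The genotypes did not overlap, and WT M1 was the highest of the WT mice. The log2 fold change was 4.15 ± 0.33 (SE; edgeR, Benjamini-Hochberg adjusted p = 3.28e-07).

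The scaffold subunit *Aph1a* was at 9.94, 5.51, 8.66 and 8.62 CPM in the WT mice and at 24.6, 25.8, 19.9 and 29.3 CPM in the V321L mice (log2 fold change 1.18 ± 0.19 SE, edgeR adjusted p = 9.16e-05). *Ncstn* was at 18.3, 11.7, 19.98 and 13.7 CPM in WT and at 32.4, 43.2, 36.6 and 35.2 CPM in V321L mice (log2 fold change 0.81 ± 0.16, edgeR adjusted p = 0.000509). The catalytic subunit gene *Psen2* was at 9.32, 6.57, 10.7 and 8.03 CPM in WT and at 18.7, 21.1, 19.7 and 12.5 CPM in V321L mice (log2 fold change 0.67 ± 0.20, edgeR adjusted p = 0.00967). For each of these 3 subunits the lowest V321L mouse exceeded the highest WT mouse. The other Aph1 gene, *Aph1b*, ranged from 7.14 to 9.81 CPM in WT and from 8.08 to 10.5 CPM in V321L mice, and these ranges overlapped. Its log2 fold change of -0.25 ± 0.20 did not pass (edgeR adjusted p = 0.282) and was 0.22 when libraries were scaled by their total UMIs alone.

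**Figure D1:**
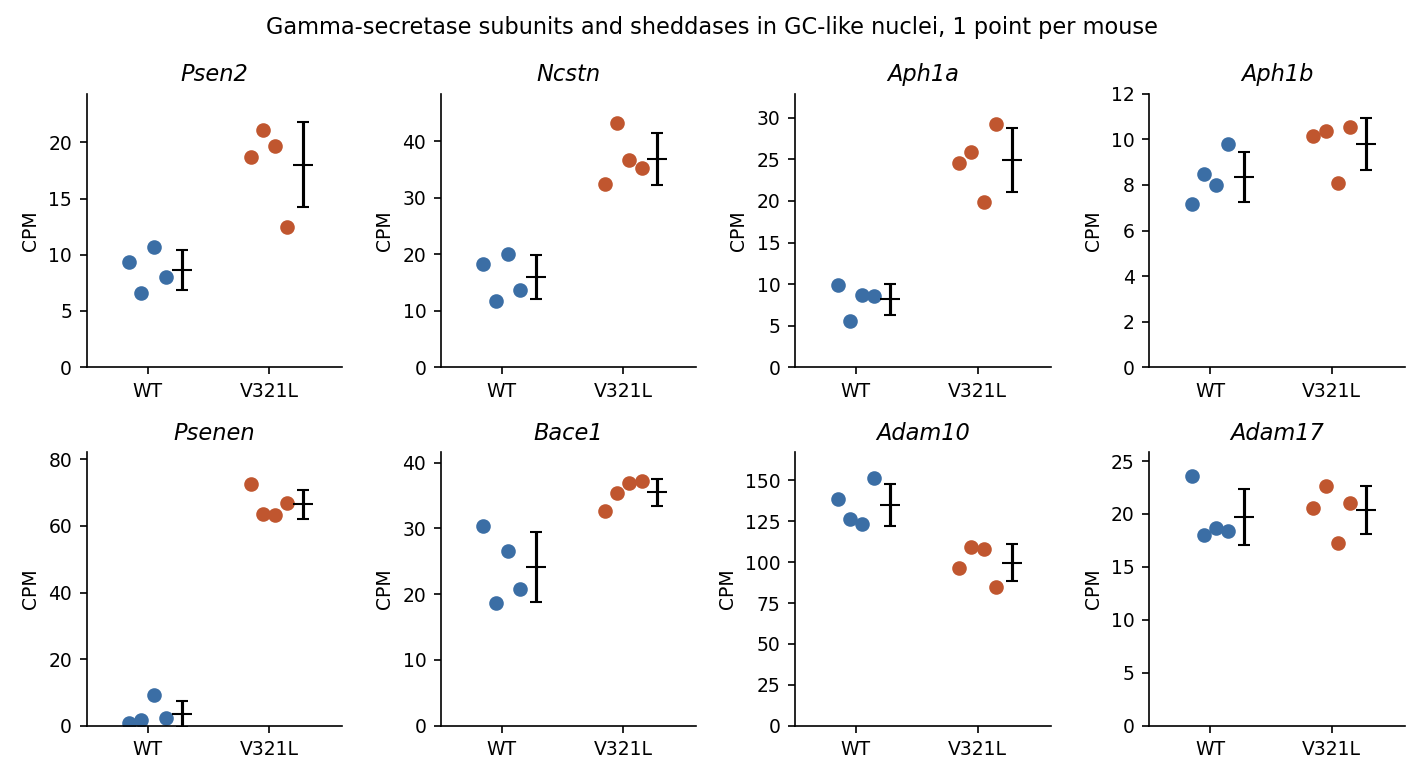
Level in CPM (UMIs per 1000000 UMIs, vertical axes from 0, separate for each gene) of the 8 members tested in GC-like nuclei. Points are mice in the order F1, F2, M1, M2, with the mean and SD beside them. *Psenen* lay between 0.932 and 9.32 CPM in WT and between 63.3 and 72.5 CPM in V321L mice, while *Adam17* overlapped between genotypes.

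Among the sheddases *Adam10*, the main alpha-secretase of neurons, was at 139, 126, 123 and 152 CPM in the WT mice and at 96.6, 109, 108 and 84.9 CPM in the V321L mice. Every V321L mouse lay below every WT mouse, with a log2 fold change of -0.89 ± 0.12 (SE; edgeR, adjusted p = 2.06e-05), and -0.44 when scaled by total UMIs alone (edgeR adjusted p = 0.00303). *Adam17*, which sheds cytokines and growth factors, was at 23.6, 18.0, 18.7 and 18.4 CPM in WT and at 20.6, 22.7, 17.2 and 21.1 CPM in V321L mice. These levels overlapped, and the call as lower (log2 fold change -0.41 ± 0.15, edgeR adjusted p = 0.0298) turned to 0.05 with total UMIs alone and was lost without WT F1, V321L F1, V321L M1 or V321L M2 (edgeR adjusted p from 0.0528 to 0.0833). *Bace1*, the beta-secretase, was at 30.4, 18.6, 26.6 and 20.8 CPM in WT and at 32.6, 35.3, 36.9 and 37.2 CPM in V321L mice. All V321L levels in CPM lay above all WT levels, but after TMM normalization the log2 fold change was 0.13 ± 0.15 (edgeR adjusted p = 0.468), while with total UMIs alone it was 0.58 (edgeR adjusted p = 0.00807). *Bace2*, the close relative of *Bace1*, had 0 to 2 UMIs per mouse in GC-like nuclei and was not tested.

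The scaling matters because the median gene differed between genotypes. TMM, which scales each library so that most genes do not differ, left a median log2 fold change of 0.12 over all genes, and scaling by total UMIs a median of 0.57. The calls over all genes were 4713 higher and 3865 lower with TMM, and 6636 higher and 2121 lower with total UMIs. Relative to the median with TMM, *Psenen*, *Aph1a*, *Ncstn* and *Psen2* were above and *Adam10*, *Adam17* and *Aph1b* below, and *Bace1* was close to it. A change of scaling moves the log2 fold changes of all genes by nearly the same amount. The same order relative to the median with total UMIs is therefore no further support.

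Longer genes were lower in V321L mice over the whole table, and the members followed this in part. Over the 95.5% of tested genes with a length in RefSeq, the median log2 fold change fell in every step from the shortest decile of genes (0.384 to 5.181 kb, median 2.36) to the longest (median -0.96). *Psenen* and *Aph1a* belonged to that shortest decile, where 85.7% of genes were called higher. *Ncstn* stood in the fourth decile (median 0.59), *Bace1* and *Aph1b* in the fifth (median 0.32), *Psen2* in the sixth (median 0.08), *Adam17* in the seventh (median -0.14) and *Adam10* in the ninth (median -0.61). *Psenen*, at 4.15, lay above the median of its decile and *Aph1a*, at 1.18, below it. *Psen2*, at 0.67, lay above the median of its decile and above the shorter *Bace1* and *Aph1b*. All 78 ribosomal protein genes tested were also called higher, with a median log2 fold change of 3.99. Of 13 mitochondrially encoded genes 8 were called higher and 4 lower, and 3 of 4 nuclear RNAs were called higher. The part of gene length, depth and these RNA classes in the differences of the members was not tested. Depth and ribosomal share of GC-like nuclei did not overlap between genotypes. Their median mitochondrial share was also higher in every V321L than in every WT mouse. The labels give no processing date, so in these libraries genotype and preparation cannot be told apart.

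**Figure D2:**
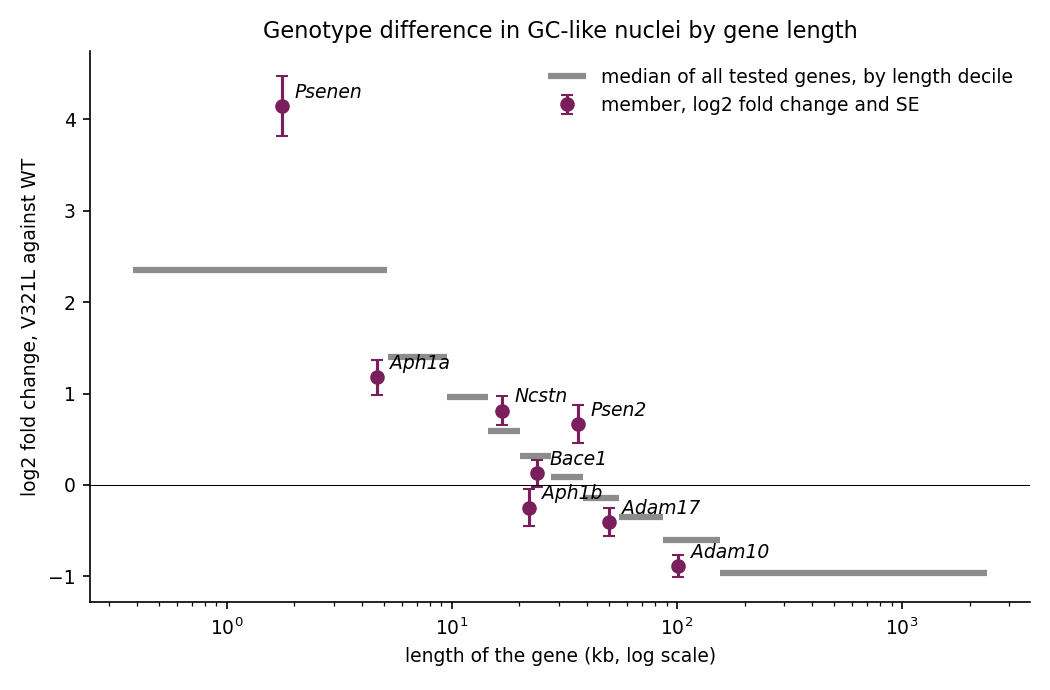
Log2 fold change of V321L against WT in GC-like nuclei (vertical axis) against gene length in kb (log scale). Points are the 8 members with their SE, and grey bars give the median of all tested genes in each decile of length, from 2.36 in the shortest to -0.96 in the longest. *Psenen* stood at 4.15 and *Adam10* at -0.89.

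Free RNA, as measured in barcodes with at most 100 UMIs, differed between genotypes too. *Psenen* made up 12.1 to 53.3 CPM of it in WT and 229.5 to 277 CPM in V321L libraries. *Bace1* ran the other way in free RNA, with 44.9 to 71.4 CPM in WT and 18.2 to 24.8 CPM in V321L libraries, and so did *Adam10*, with 103 to 161 against 31.1 to 44.9 CPM. The share of free RNA in GC-like nuclei was bounded from above by the marker panels of other classes. The lowest bound was 4.99% to 9.14% in WT and 8.60% to 17.6% in V321L mice. After subtraction of free RNA at this bound the log2 fold change of *Psenen* was 4.29 ± 0.46 (SE; edgeR, adjusted p = 5.18e-06). That of *Adam10* was -0.76 ± 0.11 (edgeR adjusted p = 4.52e-05), *Bace1* was called higher at 0.38 (edgeR adjusted p = 0.0461), and *Adam17* was not called (edgeR adjusted p = 0.101). In both genotypes *Psenen* was lower in GC-like nuclei (0.932 to 9.32 CPM in WT and 63.3 to 72.5 CPM in V321L mice) than in free RNA. The fold change after subtraction does not show how much of this level remained in either genotype. The part subtracted in a mouse is the product of its bound and its free-RNA level. The bound was 16.4%, 8.60%, 12.7% and 17.6% in V321L F1, F2, M1 and M2. Their free RNA held 257, 277, 229.5 and 265 CPM of *Psenen*. That part was a sizeable share of the level in each mouse, and in WT F1 (6.47% and 18.9 CPM) it exceeded the level of 0.932 CPM. The WT mice held 33 UMIs of *Psenen* before subtraction, so the fold change after it rests on few WT UMIs.

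The share of GC-like nuclei with at least 1 UMI of a member was compared after each nucleus had been thinned to 1000 UMIs, which left 679 to 1751 nuclei per WT and 790 to 1165 per V321L mouse. *Psenen* was then detected in 0.0959%, 0.171%, 0.884% and 0.0893% of nuclei in the WT mice and in 6.67%, 5.41%, 4.94% and 6.98% in the V321L mice (exact permutation p = 0.0286, the smallest that 4 against 4 mice allow). Without thinning the shares were 0.240% to 1.22% and 19.7% to 24.5%, and 7 members and 81.9% of all genes were free of overlap. *Psen2* (0.671% to 0.893% against 1.40% to 2.78%), *Ncstn* (1.25% to 2.65% against 2.794% to 4.89%) and *Bace1* (2.00% to 2.30% against 2.82% to 3.69%) did not overlap between genotypes at 1000 UMIs either. These 4 members stand beside 52.1% of all genes that did not overlap, 40.9% being higher in V321L mice. *Adam10* was detected in 12.7%, 12.1%, 11.05% and 14.4% of WT nuclei and in 8.54%, 10.0%, 11.3% and 7.68% of V321L nuclei, which overlapped (exact permutation p = 0.0571). *Aph1a*, *Aph1b* and *Adam17* overlapped as well. No class was fixed beforehand as lacking a member, so the free-RNA levels above serve as the background of these shares.

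The accessibility of the start sites did not separate the genotypes for any member. ATAC counts of GC-like nuclei were taken per 1000000 counts in peaks. Peaks were used where they overlapped the stretch from 1 kb before the first annotated start of a gene to 1 kb after the last. Peaks were called in each library, and their number was 61021 to 86955 in WT libraries. In V321L libraries it was 42140 (F1), 94282 (F2), 130470 (M1) and 36556 (M2). V321L F1 and M2, with the fewest peaks, had the highest V321L values at each member with a peak in all libraries except *Aph1b*. The part of this denominator in the overlap of the genotypes was not tested. At *Psenen* the ATAC counts per 1000000 were 36.2, 44.4, 42.7 and 40.3 in the WT mice and 43.2, 33.0, 41.6 and 51.9 in the V321L mice. These ranges overlapped (log2 ratio of means 0.05, exact permutation p = 0.771). The start of *U2af1l4* lies within 1 kb of the annotated *Psenen* start, so the counts there cannot be credited to *Psenen* alone. At *Adam10* the counts were 62.6, 53.7, 63.7 and 65.7 in WT and 79.2, 59.6, 56.2 and 101 in V321L mice (log2 ratio 0.27, exact permutation p = 0.371), so that *Adam10*, lower in RNA, was not lower in accessibility. *Adam17* had the lowest p, with 41.5, 36.7, 37.0 and 41.4 in WT and 58.8, 42.8, 40.2 and 54.6 in V321L mice (log2 ratio 0.33, exact permutation p = 0.0857). The 8 members with a peak in all 8 libraries had log2 ratios of -0.06 to 0.33, beside a median of 0.0895 over all genes, and 0 of them were free of overlap beside 2.37% of 13035 genes. The count was also 0 with 200 bases in place of 1 kb (2.17% of all genes) and with a library without a peak counted as 0 (2.27%). Apart from *Psen2*, which has several starts and 915 to 2750 bases of peak, these 8 members had 846 to 984 bases covered by peaks in each library. The *Psen2* starts run from chr1:180245757 to 180256300, and a peak between them was used at any distance from a start. At *Bace2* a peak was called in 6 libraries, at 2.53 to 12.8 counts per 1000000.

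**Figure D3:**
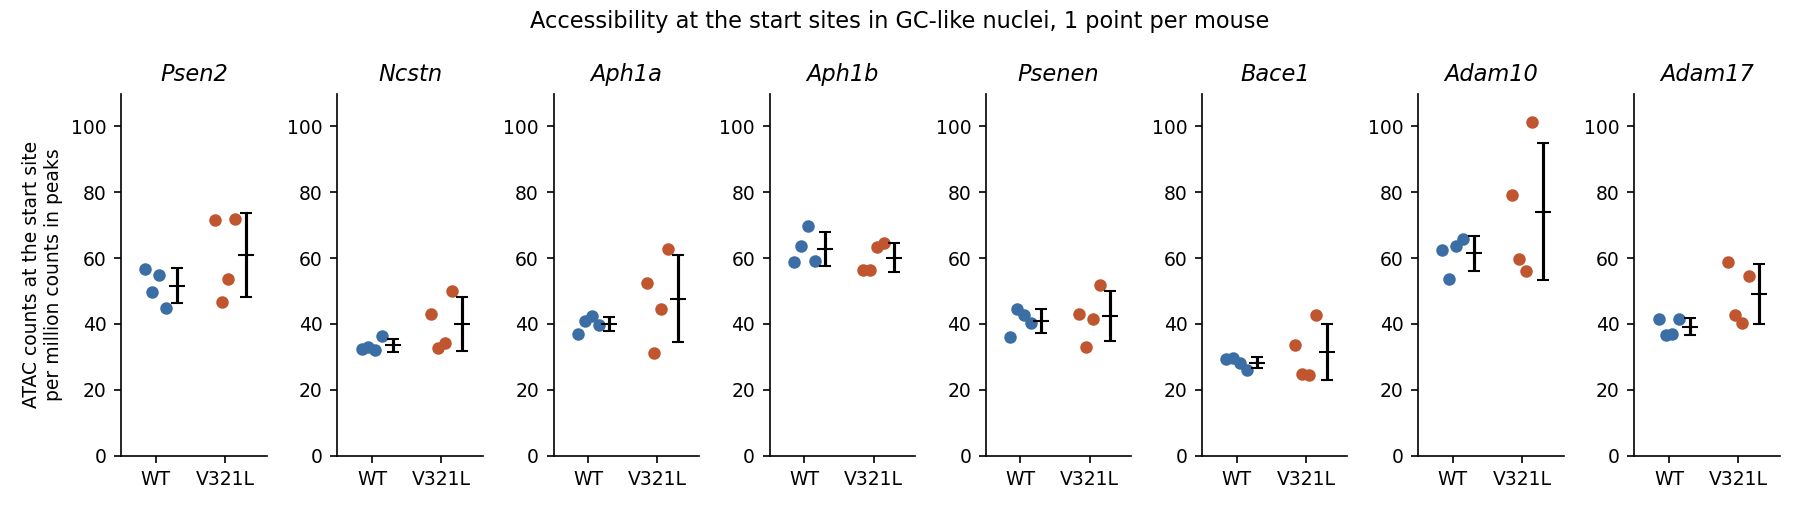
ATAC counts in peaks at the start sites of 8 members in GC-like nuclei, per 1000000 counts in peaks (vertical axes, the same for all genes). Points are mice in the order F1, F2, M1, M2, with the mean and SD beside them. The genotypes overlapped at every gene shown, *Psenen* included, whose start site lies beside that of *U2af1l4*.

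Beyond the members, lists of genes that act on them or are cut by them were compared between genotypes in GC-like nuclei. The share called was 63.6% of the regulators and partners tested, 80% of the other proteases and 75% of the substrates. These shares stand beside 70.4% of all genes, so a call as such was no feature of the lists. Of 27 regulators and partners 22 were tested, of which 11 were higher and 3 lower, with a median log2 fold change of 0.43 beside 0.12 for all genes. *Bsg*, which encodes a membrane glycoprotein found with gamma-secretase, rose from 18.0, 10.6, 32.0 and 13.4 CPM in the WT mice to 239, 239, 245 and 286 CPM in the V321L mice (log2 fold change 3.45 ± 0.20, edgeR adjusted p = 7.15e-08). Tetraspanins of the TspanC8 group carry Adam10 to the cell surface, and after TMM their log2 fold changes went in both directions. *Tspan17* rose by 3.10 ± 0.38 (SE, log2, edgeR adjusted p = 7.79e-06) from levels of at most 1.33 CPM. *Tspan14* and *Tspan5* were called lower at -0.78 and -0.70 (edgeR adjusted p = 0.00183 and 3.97e-05), but their levels in CPM overlapped between genotypes. *Tspan14* ran from 14.2 to 19.3 CPM in WT and from 9.90 to 15.1 CPM in V321L mice. *Tspan5* ran from 451 to 512 CPM in WT and from 375 to 471 CPM in V321L mice.

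Of 17 other ADAM and intramembrane proteases 15 were tested, 5 higher and 7 lower, with a median of -0.11. *Rhbdl1*, a rhomboid protease, and *Sppl2b*, a signal-peptide-peptidase-like protease, had the largest rises (log2 fold change 2.85 and 2.49, edgeR adjusted p = 1.86e-06 and 2.75e-05). *Adam12* and the non-catalytic synaptic protein gene *Adam22* had the largest falls (-1.80 and -1.04, edgeR adjusted p = 5.09e-05 and 9.13e-06). Of 22 substrates 20 were tested, 3 higher and 12 lower, with a median of -0.86. *Aplp1* rose from 49.4 to 183 CPM in WT to 628 to 694 CPM in V321L mice, and *Lrp1* rose by 1.13 on the log2 scale. *Erbb4*, the receptor of neuregulins, fell by 2.61 and the netrin receptor gene *Dcc* fell by 1.55 on the log2 scale (edgeR adjusted p = 5.07e-05 and 8.17e-06). *Nrg1* itself was at 818, 910, 653 and 698 CPM in the WT mice and at 493, 547, 578 and 395 CPM in the V321L mice (log2 fold change -1.08 ± 0.17, edgeR adjusted p = 6.44e-05). Over all genes 38.7% were higher and 31.7% lower, and whether a list differs from them was not tested. The part of gene length in the differences of the listed genes was not tested either.

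*Psenen* levels of the V321L mice lay above those of the WT mice in each of the 6 classes compared, but in microglia-like nuclei the WT counts were too few to show a difference. Other excitatory-like nuclei (89 to 376 per mouse) held 1.88, 0.889, 5.18 and 1.45 CPM of *Psenen* in the WT mice and 39.3, 44.7, 39.7 and 45.7 CPM in the V321L mice (log2 fold change 4.00 ± 0.37, edgeR adjusted p = 6.01e-05). *Aph1a* was also called in them, at 1.30 ± 0.49 (edgeR adjusted p = 0.0488), but not with a replicate block (edgeR adjusted p = 0.0958) and not in 6 of the 8 fits that left out 1 mouse, those without WT F1, WT F2, WT M2, V321L F1, V321L F2 or V321L M2 (0.99 to 1.34, edgeR adjusted p from 0.0789 to 0.189). The 2 members called of 7 tested stand beside 48.7% of all genes in this class, whose WT nuclei lay mostly in cluster 5 (58.3%) and whose V321L nuclei lay mostly in clusters 8 (34.4%) and 5 (23.6%). In GABAergic-like and astrocyte-like nuclei only *Adam10* had enough counts for the test, and it was not called (log2 fold change -0.50 and -0.35, edgeR adjusted p = 0.146 and 0.258, beside 32.9% and 32% of all genes called).

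*Psenen* had too few WT counts for the test in these 2 classes. GABAergic-like nuclei held 0 to 6.75 CPM in WT and 43.6 to 68.2 CPM in V321L mice, and astrocyte-like nuclei held 0 to 6.52 CPM in WT and 59.4 to 145 CPM in V321L mice. Oligodendrocyte-like and microglia-like nuclei were fewer than 15 in WT M1 and were tested without that mouse, a choice made after the data were seen. In oligodendrocyte-like nuclei *Psenen* had 1 UMI over the other 3 WT mice and 13, 28, 17 and 14 UMIs in the V321L mice (log2 fold change 3.31 ± 0.90, edgeR adjusted p = 0.00807, beside 25.1% of all genes), and the call was lost without WT F2 (2.77, edgeR adjusted p = 0.0542). Without any of the 4 V321L mice in turn, with Leiden clusters or with free RNA subtracted, it had too few counts for the test. Microglia-like nuclei had 0 UMIs of *Psenen* in WT and 43.9 to 138 CPM in V321L mice. With 3 counts over the group as the floor, the WT value among 43000 UMIs of 55 nuclei is under 69.8 CPM. The V321L mice held 73.2 CPM over the group, so no difference was detectable at this depth. *Adam10* and *Adam17* were not called in microglia-like nuclei (-0.31 and -0.43, edgeR adjusted p = 0.643 and 0.613, beside 24.3% of all genes).

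Whether the genotype difference of a member differed between a class and GC-like nuclei was tested by an interaction term. edgeR called 0 of 8 members in other excitatory-like, 0 of 7 in GABAergic-like and 0 of 8 in astrocyte-like nuclei, where 0.263%, 0.912% and 0.226% of all genes were called, and 0 of 8 members each in oligodendrocyte-like and microglia-like nuclei without WT M1 (0.722% and 0.674% of all genes). An unadjusted p under 0.05 was reached by *Adam10* in 3 classes and by *Bace1* in 1. The lowest was that of *Adam10* in oligodendrocyte-like nuclei (difference in log2 fold change 1.01 ± 0.38, edgeR adjusted p = 0.272).

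The classes differed in which sheddase RNA they held. Among the 6 classes compared, *Adam17* and *Adam10* were highest in microglia-like nuclei, *Bace1* was highest in oligodendrocyte-like nuclei of V321L mice and had 0 UMIs in microglia-like nuclei of these mice, and *Aph1b* was higher in other excitatory-like than in GC-like nuclei. Classes were compared with GC-like nuclei of the same mice, so that both sums came from 1 library. The share of all genes called was 38.1% in other excitatory-like, 39.2% in GABAergic-like, 46.9% in astrocyte-like, 44.3% in oligodendrocyte-like and 42.2% in microglia-like nuclei, and the members called were 2 of 8, 1 of 7, 2 of 7, 6 of 8 and 4 of 8. In the latter 2 classes both the members and all genes were tested without WT M1.

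*Adam17* in microglia-like nuclei was at 325, 165, 119 and 218 CPM in the V321L mice, from 16, 15, 6 and 9 UMIs. In WT microglia-like nuclei it was at 214 (F1), 488 (F2) and 385 (M2) CPM, from 3, 5 and 7 UMIs. All of these lay above every GC-like level, which ran from 17.2 to 23.6 CPM, and the log2 difference was 2.70 ± 0.33 (SE; edgeR, adjusted p = 2.89e-15). Among these 6 classes the mean in V321L mice fell from 206 ± 88.6 CPM (SD, n = 4) in microglia-like to 53.8 ± 17.2 in oligodendrocyte-like nuclei without overlap, and the next neighbours in the order, astrocyte-like at 37.3 ± 11.96, GABAergic-like at 20.9 ± 3.62, GC-like at 20.4 ± 2.29 and other excitatory-like at 15.6 ± 8.82, each overlapped the one before. *Adam17* was also higher than in GC-like nuclei in astrocyte-like (0.82 ± 0.27, edgeR adjusted p = 0.0139) and in oligodendrocyte-like nuclei (0.96 ± 0.33, edgeR adjusted p = 0.00893). The latter call was lost without V321L F1, V321L M1 or V321L M2 (0.82 to 0.84, edgeR adjusted p from 0.0582 to 0.0668).

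*Adam10* was at 304, 351, 415 and 314 CPM in microglia-like nuclei of the V321L mice, above the other 5 classes compared. Vascular-like nuclei, 7 to 18 per V321L mouse and not tested, overlapped with them in both genes (134 to 609 CPM of *Adam10* and 0 to 184 CPM of *Adam17*). It was higher than in GC-like nuclei in microglia-like (0.93 ± 0.31, edgeR adjusted p = 0.00874), oligodendrocyte-like (0.77 ± 0.26, edgeR adjusted p = 0.00982) and GABAergic-like nuclei (0.74 ± 0.14, edgeR adjusted p = 2.05e-05). GABAergic-like nuclei held 284, 148, 260 and 293 CPM in the WT mice and 200, 217, 115 and 193 CPM in the V321L mice. The oligodendrocyte call was lost without V321L M1 or V321L M2 (edgeR adjusted p = 0.0509 and 0.0511).

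*Bace1* in oligodendrocyte-like nuclei was at 95.5, 66.5, 82.2 and 104 CPM in the V321L mice, against 32.6 to 37.2 CPM in their GC-like nuclei. Over 7 mice the log2 difference was 0.93 ± 0.29 (SE; edgeR, adjusted p = 0.00414), and it was lost without V321L F1 (0.76, edgeR adjusted p = 0.0512). WT oligodendrocyte-like nuclei held 2 UMIs of *Bace1*, which is 20.7 CPM beside 23.1 CPM in WT GC-like nuclei. The higher level was thus seen in V321L mice and was not detectable in WT mice at this depth. Microglia-like nuclei of the V321L mice held 0 UMIs of *Bace1* among 232398 UMIs of 215 nuclei. With 3 counts over the group as the floor this is under 12.9 CPM and at least 2.74-fold lower than the 35.4 CPM of GC-like nuclei. WT microglia-like nuclei held 1 UMI of *Bace1* among 43000 UMIs of 55 nuclei, which is 23.3 CPM beside 23.1 CPM in WT GC-like nuclei, so no difference was detectable in WT mice at this depth. The class term was called in edgeR (adjusted p = 0.00027), and its fitted size depends on the prior count and is not given.

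*Bace2* was sparse in every class. Its highest levels were single UMIs, and in V321L mice it reached 1.31 to 2.54 CPM in other excitatory-like nuclei and 0 to 0.538 CPM in GC-like nuclei.

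**Figure D4:**
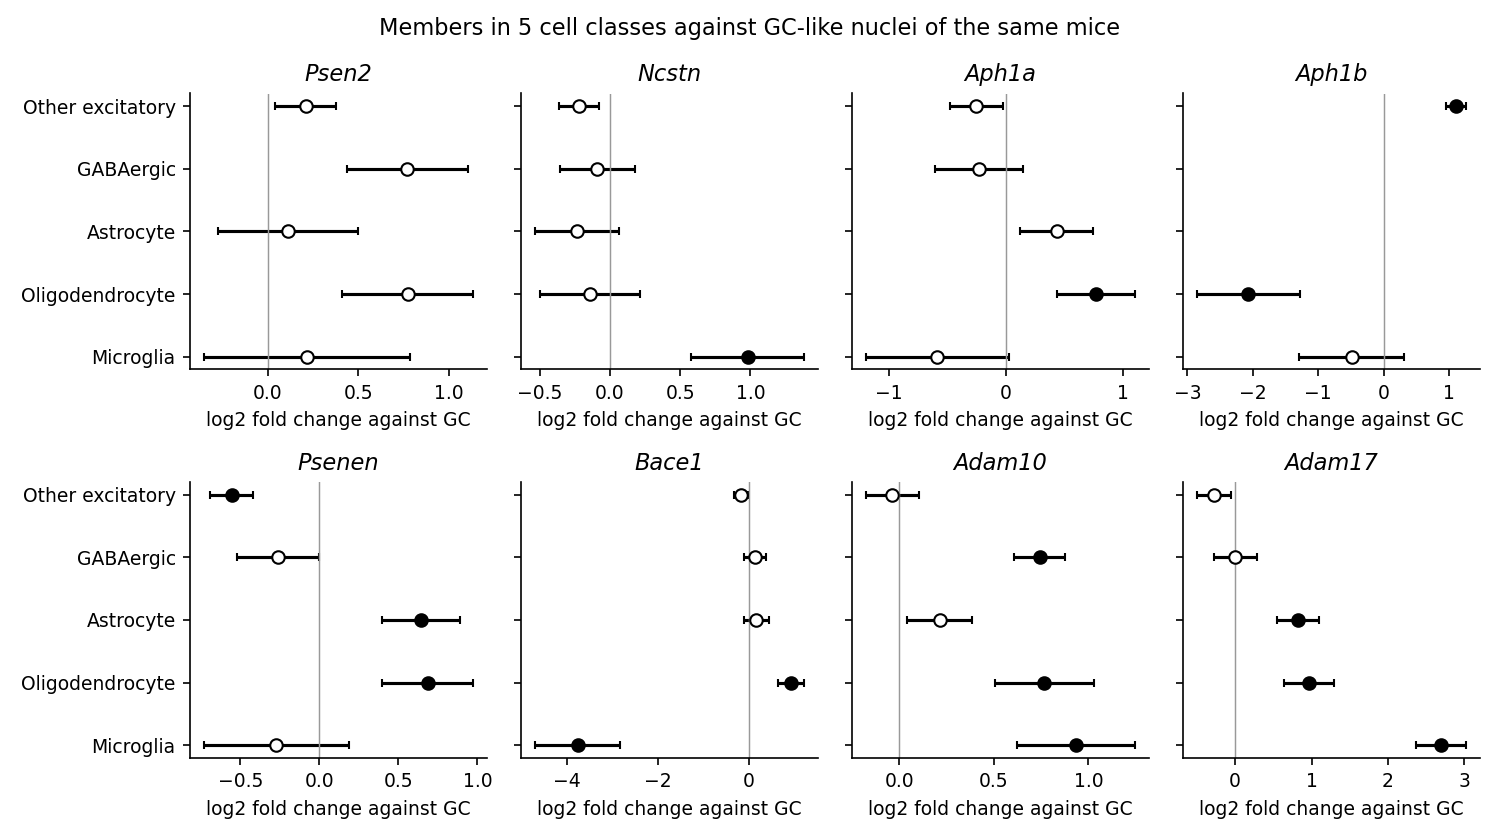
Log2 fold change of each member in 5 cell classes against GC-like nuclei of the same mice (horizontal axes, separate for each gene), with SE. Filled points passed edgeR's test at an adjusted p under 0.05, and oligodendrocyte and microglia values leave out WT M1. *Adam17* stood at 2.70 in microglia-like nuclei and *Aph1b* at 1.11 in other excitatory-like nuclei, and a missing point means too few counts.

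Among the gamma-secretase subunits *Aph1b* was at 16.9, 13.3, 15.5 and 23.3 CPM in other excitatory-like nuclei of the WT mice and at 20.7, 22.3, 14.4 and 28.8 CPM in those of the V321L mice. In each of the 8 mice this was above the GC-like nuclei, and the log2 difference was 1.11 ± 0.15 (SE; edgeR, adjusted p = 9.29e-05). It was called in WT mice alone (1.05, edgeR adjusted p = 0.0061) and in V321L mice alone (1.20, edgeR adjusted p = 0.00815). In oligodendrocyte-like nuclei *Aph1b* had 2 UMIs over all mice and was called lower than in GC-like nuclei (-2.07 ± 0.79, edgeR adjusted p = 0.0222), a call lost without V321L F1 or V321L M1 (edgeR adjusted p = 0.0652 and 0.0551). *Aph1a* was called higher there (0.77 ± 0.34, edgeR adjusted p = 0.049), a call lost without WT F1, WT M2, V321L F1, V321L F2 or V321L M2 (0.45 to 0.84, edgeR adjusted p from 0.0546 to 0.394).

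*Psenen* was lower in other excitatory-like than in GC-like nuclei (-0.55 ± 0.14, edgeR adjusted p = 0.00582) and higher in astrocyte-like (0.64 ± 0.25, edgeR adjusted p = 0.0335) and oligodendrocyte-like nuclei (0.69 ± 0.29, edgeR adjusted p = 0.0407). With free RNA subtracted the first of these was -0.04 (edgeR adjusted p = 0.94) and the third was not called (edgeR adjusted p = 0.299). The third was also lost without V321L F2, V321L M1 or V321L M2 (edgeR adjusted p from 0.106 to 0.14). WT astrocyte-like and oligodendrocyte-like nuclei held 1 UMI of *Psenen* each. This is 2.71 and 10.4 CPM over the group, beside 2.58 CPM in WT GC-like nuclei. The higher levels were thus seen in V321L mice and were not detectable in WT mice at this depth. *Ncstn* was called higher only in microglia-like nuclei (0.98 ± 0.40, edgeR adjusted p = 0.0367), at 24.2 to 162 CPM in the V321L mice, and the call was lost without WT M2, V321L F1 or V321L F2 (0.65 to 0.83, edgeR adjusted p from 0.0887 to 0.274). *Psen2* was called in no class (log2 difference 0.11 to 0.77, edgeR adjusted p from 0.064 to 0.849), though with total UMIs alone it was called higher in GABAergic-like and oligodendrocyte-like nuclei (0.83 and 0.92, edgeR adjusted p = 0.0434 and 0.0228), and in V321L mice all 6 classes overlapped with their neighbours, from 38.8 ± 12.8 CPM in oligodendrocyte-like to 18.0 ± 3.79 in GC-like nuclei.

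Because Bace1 acts before gamma-secretase, its RNA was compared between GC-like nuclei with and without a *Penk* UMI. *Penk*+ nuclei numbered 24, 14, 10 and 12 in the WT mice and 81, 93, 49 and 45 in the V321L mice. *Bace1* was lower in *Penk*+ than in *Penk*- nuclei of all 4 V321L mice, but the difference did not pass the test, and 0 of 7 members tested were called beside 6.34% of 8543 genes (542 genes, and 1365 at an unadjusted p under 0.05). *Nrg1* was higher in *Penk*+ nuclei (log2 difference 1.35 ± 0.10, edgeR adjusted p = 2.58e-35).

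In the V321L mice *Bace1* was at 22.3, 24.8, 22.4 and 22.6 CPM in *Penk*+ nuclei, from 7, 11, 5 and 4 UMIs, and at 33.6, 36.2, 37.8 and 38.1 CPM in *Penk*- nuclei. In the WT mice *Penk*+ nuclei held 5, 0, 0 and 1 UMIs of it, so that WT F1 was above its *Penk*- nuclei, at 60.9 against 29.6 CPM, and so was WT M2, at 26.1 against 20.8 CPM, while WT F2 and WT M1 were at 0. Over 8 mice the log2 difference was -0.48 ± 0.27 (SE; edgeR, unadjusted p = 0.0774, adjusted p = 0.397). It was -0.64 ± 0.28 in V321L mice alone (edgeR adjusted p = 0.219) and 0.25 ± 0.76 in WT mice alone (edgeR adjusted p = 0.965), and the difference between genotypes was not tested. In V321L mice *Bace1* was detected in 26 of 268 *Penk*+ nuclei (9.70%, 95% Wilson interval 6.71% to 13.8%). In *Penk*- nuclei of the same mice matched for UMIs it was detected in 190 of 1340 (14.2%, 12.4% to 16.1%). Pooled over the WT mice it was detected in 6 of 60 *Penk*+ nuclei (10.0%, 4.66% to 20.1%) and 20 of 300 matched nuclei (6.67%, 4.36% to 10.1%). Of the 6 nuclei 5 came from WT F1, the only WT mouse with the higher share in *Penk*+ nuclei (5 of 24 against 11 of 120). WT F2 (0 of 14 against 3 of 70) and WT M2 (1 of 12 against 6 of 60) had the lower share in them, and WT M1 had 0 in both. These intervals pool the nuclei of the mice of a genotype and cover counting error only.

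*Psenen* was at 86.1, 78.9, 76.0 and 56.4 CPM in *Penk*+ nuclei of the V321L mice, against 71.3, 62.2, 62.5 and 67.5 CPM in *Penk*- nuclei (log2 difference over 8 mice 0.24 ± 0.20, edgeR adjusted p = 0.655). *Adam10* (0.10 ± 0.15), *Adam17* (0.24 ± 0.29), *Ncstn* (0.18 ± 0.24), *Aph1a* (0.06 ± 0.29) and *Psen2* (-0.03 ± 0.32) were closer to 0 than 1 SE of their own (edgeR adjusted p from 0.796 to 0.987). *Aph1b* had 13 UMIs and *Bace2* 0 UMIs over all *Penk*+ nuclei, and neither was tested. Of the 49 *Penk*+ nuclei with an *Nrg1* UMI in WT mice, 6 also held *Bace1*, 18 *Adam10*, 1 *Psenen* and 2 *Psen2*. Of the 223 such nuclei in V321L mice, 23 also held *Bace1*, 84 *Adam10*, 66 *Psenen* and 18 *Psen2*. Median UMIs of *Penk*+ nuclei were 1185 to 3047.5 in WT and 3561 to 4639 in V321L mice, so these counts are not compared between genotypes. The matched *Penk*- nuclei, chosen without regard to *Nrg1*, held *Bace1* in 14.2%, *Adam10* in 33.2%, *Psenen* in 23.7% and *Psen2* in 7.61% in V321L mice. In WT mice these shares were 6.67%, 28.3%, 0.667% and 1.33%.

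**Figure D5:**
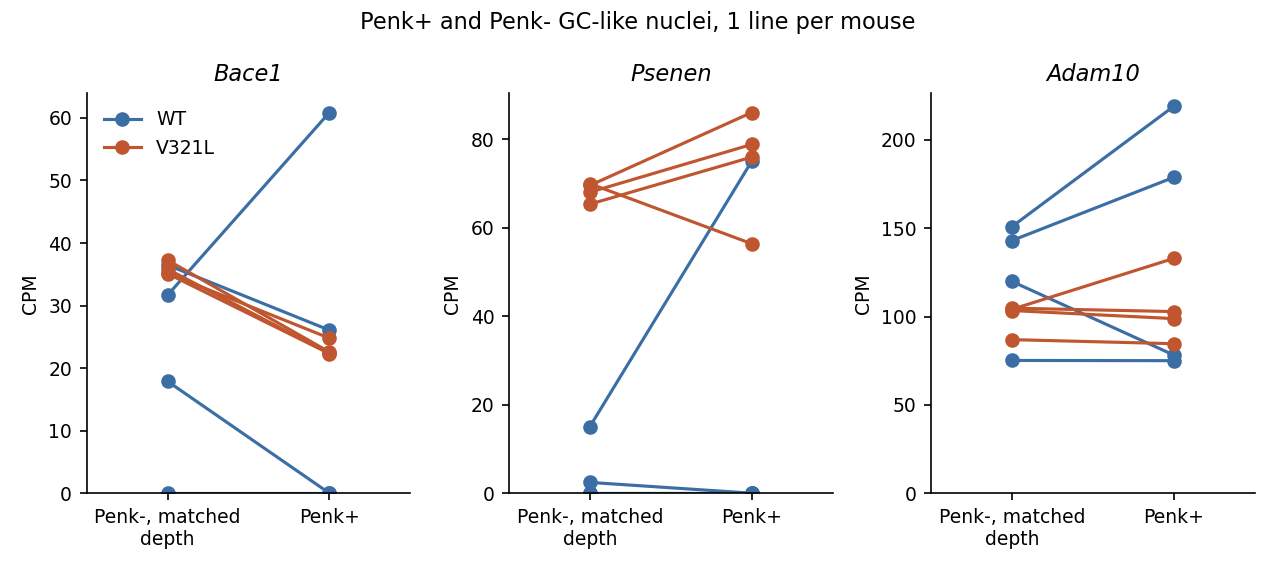
Level in CPM (UMIs per 1000000 UMIs, vertical axes from 0) in *Penk*+ GC-like nuclei and in *Penk*- nuclei of the same mouse matched for UMIs, 1 line per mouse. All 4 V321L mice had less *Bace1* in *Penk*+ nuclei, and the WT values of *Bace1* rested on 0 to 5 UMIs, with WT M2 below its matched nuclei (36.5 CPM).

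Across the 32 sums of 1 mouse and 1 class, in the 4 classes tested in all 8 mice, the genes whose log2(CPM + 1) followed a member most closely were found over the whole table. These sums share libraries and depth, and the correlations are descriptions. *Psenen* was most like *1110065P20Rik* and *Aurkaip1* (Pearson r = 0.95 for both) and *Aph1a* most like *Atp5g2* and *Mrps17* (0.94 and 0.92). *Psen2* was most like *Afg3l1* and *Dctn6* (0.91 and 0.90), *Ncstn* like *Capn15* and *Ipo5* (0.87 and 0.86), *Aph1b* like *Gne* and *Hcfc1* (0.88 for both) and *Bace1* like *Retreg3* and *Gnai3* (0.90 and 0.89). The ADAM genes had lower values, *Adam10* with *Plxdc2* and *Lmbrd1* (0.84 and 0.81) and *Adam17* with *Lrrc9* and *Ints4* (0.76 and 0.74).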

How the data were processed

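The authors prepared nuclei from frozen DG tissue, made Multiome libraries and ran Cell Ranger ARC 2.0.2 on the reads with build mm10, per the file headers and the submitters' processing notes. The deposited matrices hold raw counts, namely RNA UMIs per gene and ATAC counts in peaks called in each library, for all barcodes. 0 columns of samples were left unused. Barcodes were kept as nuclei with more than 500 UMIs, more than 250 genes, at least 500 ATAC counts in peaks and the upper limits of the paper. Doublets above the library mean + 2 SD of a Scrublet-type score were removed (3.40% to 5.94% of the barcodes scored). The 8 libraries held 4326426 to 23582057 RNA UMIs.

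A nucleus was gated to a class with at least 3 UMIs over at least 2 genes of its panel and at least 2 times the UMIs of every other panel. UMIs were summed per mouse and class, since the mouse is the replicate, and classes with at least 15 nuclei in every mouse were tested. All genes were fitted by edgeR 4.0.16 (R 4.3.3, quasi-likelihood test), with its low-count filter, TMM and Benjamini-Hochberg adjustment at 0.05. Mouse was a block for classes and for *Penk*. DESeq2 1.42.0 was the second tool. Clusters came from leidenalg 0.10.2. Shares and ATAC values were compared by two-sided exact permutation over 70 assignments, unadjusted. CPM are UMIs per 1000000 UMIs of the summed nuclei. The scripts were tested on simulated data.

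The members, panels and lists were chosen with earlier results of these data known. All 9 members were named, with *Nrg1* beside them, the 2 largest rises and 2 largest falls called in each list, and the 2 genes most like each member. The alternatives changed scaling, filters, gating, doublets, depth, free RNA, covariates and mice. Protein sequences were not analysed here.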

Additional observations from a re-analysis of the deposited data

Results flagged for a closer look

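Of 48 groups of 4 member values, 1 value per mouse of a genotype, 4 held a value far from the other 3. Chance gives about 1 such group in 20. *Aph1b* in GC-like nuclei of V321L M1 was at 8.077 CPM, below the other V321L mice, which lay between 10.2 and 10.5 CPM. *Adam17* in GC-like nuclei of WT F1 was at 23.61 CPM, above the other WT mice, which lay between 18.0 and 18.7 CPM. *Ncstn* was detected in 4.893% of the GC-like nuclei of V321L F2 at 1000 UMIs, above 2.794% to 2.91% in the other V321L mice. *Psenen* was detected in 0.8837% of the GC-like nuclei of WT M1 at 1000 UMIs, above 0.0893% to 0.171% in the other WT mice. WT M1 also had the highest share of ribosomal protein genes of the WT mice (0.113%).

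Barcodes with at most 100 UMIs, which hold free RNA and enter no comparison of nuclei, also separated the genotypes for *Psenen*, with 229.5 CPM as the lowest V321L value and 53.34 CPM as the highest WT value. The part of free RNA in the difference between nuclei was measured only by subtraction at an upper bound of its share. After this the log2 fold change in GC-like nuclei was 4.29 ± 0.46 (SE). The WT mice held 33 UMIs of *Psenen* in these nuclei before subtraction, and in WT F1 the part subtracted exceeded the level. The value thus rests on few WT UMIs and does not show how much of the difference remains without free RNA.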

How the results depend on the processing

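In GC-like nuclei the count of members called between genotypes was 5 to 6 under all alternatives but thinning to 1000 UMIs, which gave 3 (*Psenen*, *Psen2* and *Adam10*). Scaled by library size alone, *Aph1b* (0.22) and *Adam17* (0.054) changed sign on the log2 scale. Leaving out 1 mouse gave 5 to 6 members there.

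In the other classes compared between genotypes (2 members called), DESeq2, sex as covariate, at least 5 panel UMIs and subtracted free RNA each gave 1, no low-count filter, no ATAC minimum and Leiden clusters each gave 4, no upper limits gave 5, and thinning gave 0. Leaving out 1 mouse gave 1 to 4. In oligodendrocyte-like and microglia-like nuclei (1 called without WT M1), Leiden clusters and subtracted free RNA each gave 0 and leaving out 1 further mouse 0 to 1. Against GC-like nuclei (5 called), thinning gave 1 and WT mice alone 3, and leaving out 1 mouse gave 4 to 6. For oligodendrocyte-like and microglia-like nuclei (10 called), subtracted free RNA gave 6, DESeq2 gave 5 and leaving out 1 further mouse 5 to 10. Thinning left astrocyte-like nuclei with too few nuclei to be fitted and removed genes and nuclei from the other classes. The cause of the other changes was not tested.

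For *Penk*+ nuclei the count was 0 in every alternative run, also leaving out 1 mouse (0 to 0), and the log2 difference of *Bace1* changed sign in WT mice alone (0.25). In the depth-matched fit only *Psenen* and *Adam10* had enough counts. Detection at 1000 UMIs (4 members without overlap) became 7 without thinning, where 81.9% of all genes did not overlap, 2 at 500 UMIs (42.2%), and 4 to 6 leaving out 1 mouse. Accessibility (0 members) became 0 to 1 leaving out 1 mouse.

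With the replicate block, 6 members and 8445 genes were called in GC-like nuclei and 1 member in the other classes. The numbers name mice and did not pair them (r of same-numbered mice 0.06, 0.27, -0.12 and 0.02). Calls over all genes moved by more than 1.5 times in the classes of few nuclei, for example in microglia-like nuclei from 230 to 746 with Leiden clusters and in GABAergic-like nuclei from 1096 to 79 with thinning. Among *Penk*+ nuclei they moved from 542 to 65 in WT mice alone. Scaling by library size alone changed the split between genotypes in other excitatory-like nuclei from 1803 higher and 1651 lower to 2780 and 739. The alternatives for oligodendrocyte-like and microglia-like nuclei, the library-size alternative of the interaction and 7 of those for the genotype in other classes were chosen after seeing the data. *Bace2* in all classes and most members in the smaller classes had too few counts for the test.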
